A study of Mus musculus with 18 samples.

Results

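The genes described here mark pyramidal neurons, the excitatory projection neurons of the cerebral cortex, and the layers in which these neurons lie. The set holds 37 genes, taken by name from the 54547 genes of the deposited tables by a rule that uses no measured value, though earlier results of these data were known when it was written: 6 of glutamatergic identity, 6 of the upper layers, 8 of layer 5, 9 of layer 6 and 8 that are expressed in several layers. They were measured in medial prefrontal cortex of C57BL6/J mice at postnatal day 100, in 9 libraries from animals on a control diet and 9 from animals on chow with PLX5622 at 1200 mg/kg. PLX5622 inhibits CSF1R, the receptor on which microglia depend. Per the labels, 21 days of diet came before 44 days of every-other-day access to 15% ethanol, and tissue was collected 24 hours after the last ethanol. That text stands on every sample, so both diets share the ethanol exposure as labelled. The deposited names also carry an abbreviation, Sal, that the labels do not explain, so whether every animal drank ethanol is not settled, and what the control animals received is given only by their chow label. Each library is numbered as in its title and held 990136 to 1742680 counts.

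Pyramidal neurons are arranged in layers that differ in where their axons go. Neurons of the upper layers connect cortical areas to each other, layer 5 holds neurons that project below the cortex or to the other hemisphere, and layer 6 holds neurons that project to the thalamus and lies next to the white matter. Vesicular glutamate transporters load glutamate into synaptic vesicles, and transcription factors such as Cux2, Fezf2 and Tbr1 set or maintain layer identity. Because each layer has its own genes, their balance in a bulk sample also shows which depth of cortex the dissection took.

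None of the 35 members that could be tested passed the comparison of the diets in edgeR's quasi-likelihood test, at a threshold of 0.05 on p after Benjamini-Hochberg adjustment over all genes (lowest adjusted p = 0.641). Among all 11051 genes tested 44, or 0.398%, passed that threshold. At an unadjusted p under 0.05 there were 2 members, 5.71% of those tested, beside 6.79% of all genes. DESeq2 and limma-voom also called 0 members, with 1 and 2 members at an unadjusted p under 0.05. Positive and negative values were nearly balanced, 19 and 16, and the median log2 fold change of PLX5622 over control was 0.01 among the members and 0.0001 among all genes tested.

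**Figure D1:**
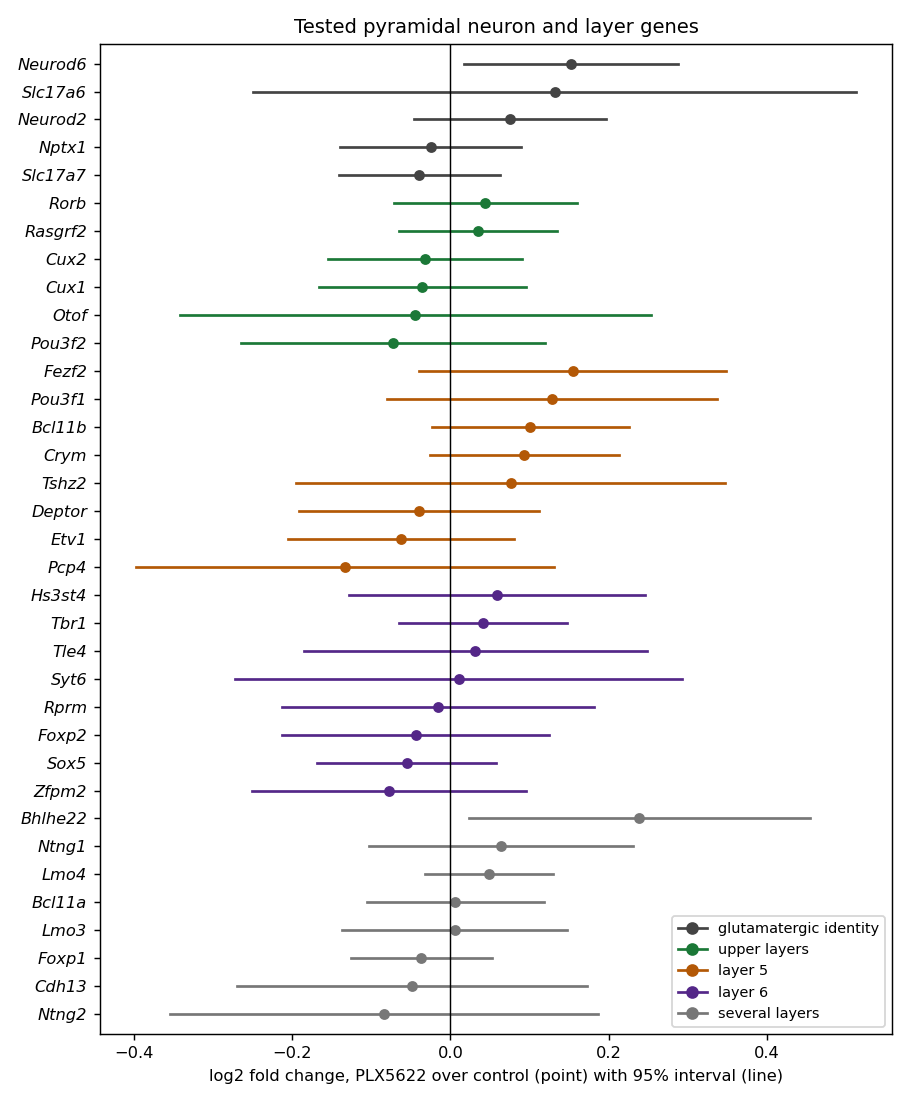
Log2 fold change of PLX5622 over control (horizontal axis) for the 35 tested members, with points for the estimate and lines for its 95% interval from the edgeR fit, coloured by layer group. Estimates run from -0.13 (Pcp4) to 0.24 (Bhlhe22), and the intervals of Neurod6 and Bhlhe22 alone lie to 1 side of 0.

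The intervals set how large a difference could have been missed. The 95% interval lay within 0.25 on the log2 scale in either direction, a 1.19-fold difference, for 22 of the 35, and within 0.5, a 1.41-fold difference, for 34. Slc17a6, with 255 counts over all libraries, was the member whose interval reached further, from -0.25 to 0.51. The intervals are not adjusted for the number of members, and values inside them do not show that a gene was the same in both diets. In no member did the 2 groups of libraries separate without overlap. The share of all genes that did so was not computed, so this is not a result particular to the members.

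Genes of glutamatergic identity were measured first. Slc17a7 encodes VGLUT1, the main vesicular glutamate transporter of cortical pyramidal neurons. In CPM, counts scaled to a common library size, it ran from 377 to 533 in the controls, with a median of 455, and from 364 to 470 with PLX5622, with a median of 439.5. The ranges overlapped, with 8 of 9 PLX5622 libraries inside the control range, and the log2 fold change was -0.04 ± 0.05 (SE, adjusted p = 0.958). Slc17a6, which encodes VGLUT2, the transporter of thalamic and other subcortical neurons, was at 0.13 ± 0.19 (log2, SE). Its spread was wider with PLX5622, 10.7 ± 4.1 CPM, than in the controls, 9.87 ± 1.38 CPM (SD, n = 9 each); that difference in spread was not tested.

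The NeuroD factors are basic helix-loop-helix proteins of differentiating and mature excitatory neurons. Neurod6 ranged from 122 to 184 CPM in the controls with a median of 145, and from 126 to 192 CPM with PLX5622 with a median of 162. The PLX5622 libraries thus tended to the upper part of a shared range, 7 of 9 above the control median. Neurod6 had the lowest p of all members, at 0.15 ± 0.07 (log2, SE, edgeR unadjusted p = 0.028, adjusted 0.641). Control 2 stood at the top of the controls, and without it the estimate was 0.20, the highest over the alternatives run, whose adjusted p ranged from 0.26 to 0.999. Neurod2 was at 0.08 ± 0.06 and Nptx1, a secreted pentraxin of excitatory synapses, at -0.03 ± 0.06 (log2, SE). Neurod1 had 0 counts in every library. Its span on chromosome 2 (79452521 to 79456751, GRCm38) lies wholly within the annotated span of Cerkl on the same strand, introns included. Overlap of exons was not checked, and 0 counts do not show that it is absent.

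**Figure D2:**
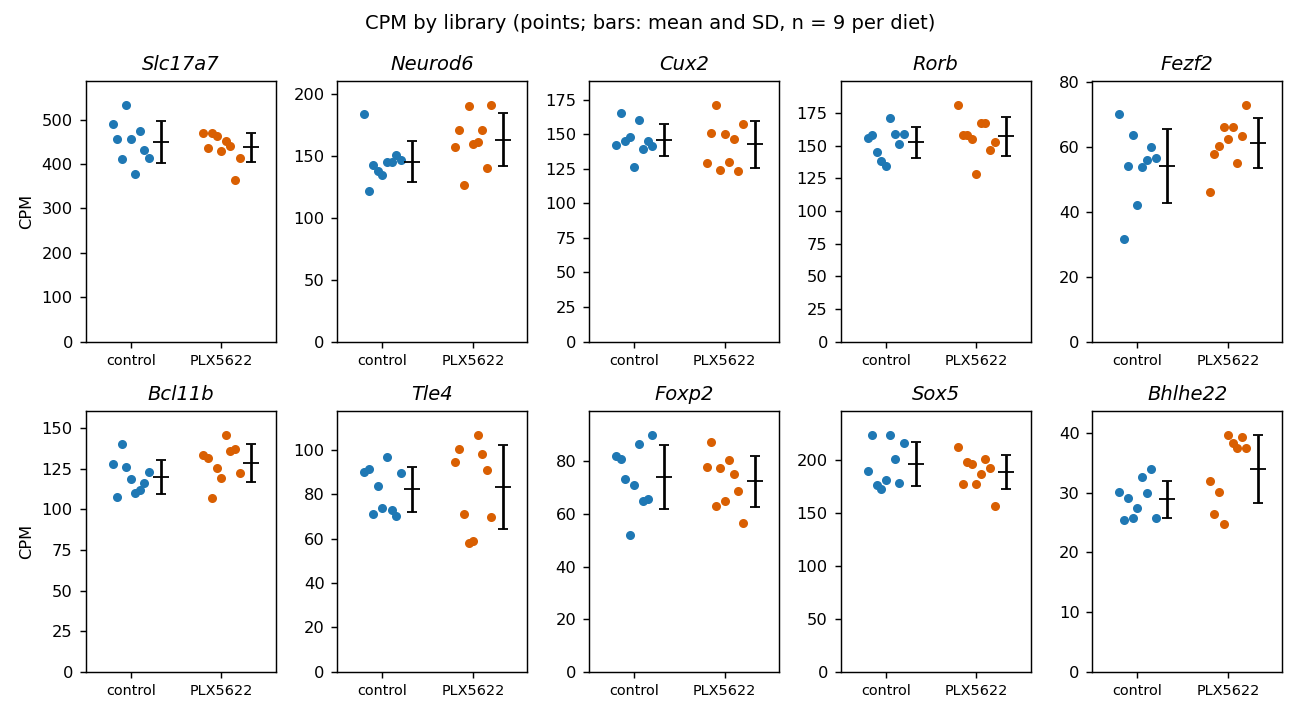
CPM (vertical axis, from 0) of 10 members in each library, with blue points for the 9 control and orange points for the 9 PLX5622 libraries in order of animal number, and bars for the mean and SD. The ranges of the diets overlap in each gene; in Bhlhe22, 5 PLX5622 libraries lie above all controls.

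Upper-layer genes gave 2 positive and 4 negative values, with a median of -0.03 (log2) and none called. Cux2 is a homeobox factor of layers II to IV. Its CPM ranged from 126 to 165 in the controls with a median of 145, and from 124 to 171 with PLX5622 with a median of 147. The PLX5622 range enclosed that of the controls, and the estimate was -0.03 ± 0.06 (log2, SE, adjusted p = 0.972). Rorb, a nuclear receptor that marks layer IV and its border in areas with a thin layer IV, had the lowest p of this group. It ranged from 134 to 171 CPM in the controls with a median of 156, and from 128 to 181 CPM with PLX5622 with a median of 158. Here too the PLX5622 range enclosed that of the controls, and the estimate was 0.04 ± 0.06 (adjusted p = 0.958). Cux1, the paralog of Cux2, was at -0.04 ± 0.07, and Rasgrf2, an exchange factor for Ras and Rac, at 0.03 ± 0.05. Pou3f2, the POU factor BRN2, was at -0.07 ± 0.10, and Otof, which encodes otoferlin, at -0.04 ± 0.15 on 430 counts.

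In layer 5, 5 members had positive and 3 negative values, with a median of 0.08 (log2) and none called. Fezf2 is a zinc finger factor that specifies subcortically projecting neurons. Its CPM ran from 31.7 to 70.1 in the controls with a median of 56.1, and from 46.1 to 73.0 with PLX5622 with a median of 62.5. Control 3 was the lowest library of all, and 8 of 9 PLX5622 libraries lay in the control range, with an estimate of 0.15 ± 0.10 (log2, SE, adjusted p = 0.830). Without control 3 the estimate was 0.08 (adjusted p = 0.991). Bcl11b, or CTIP2, acts with Fezf2 in neurons that project to the spinal cord and is also expressed in interneurons. It ranged from 107 to 140 CPM in the controls with a median of 119, and from 107 to 146 CPM with PLX5622 with a median of 132. Of the PLX5622 libraries 8 of 9 exceeded the control median, though the shift was small beside the spread, at 0.10 ± 0.06 (adjusted p = 0.827). Crym, a thyroid hormone binding protein, was at 0.09 ± 0.06, and Pou3f1, or SCIP, at 0.13 ± 0.10. Values for Etv1, an ETS factor, and Deptor, an inhibitor of mTOR, were -0.06 ± 0.07 and -0.04 ± 0.08.

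The other members of layer 5 were more variable. Tshz2, which marks near-projecting neurons, spanned 85.4 to 119 CPM in the controls and 84.7 to 160 with PLX5622, where animals 29 and 34 were high, and was at 0.08 ± 0.13 (log2, SE). Pcp4, a calmodulin regulator, spanned 79.2 to 151 CPM in the controls and 87.4 to 135 with PLX5622, and was at -0.13 ± 0.13. Its annotated span on chromosome 16 (96467606 to 96525793, GRCm38) is overlapped over 99.6% by Igsf5 on the same strand, 78.7% of its last 1000 bases included. These spans include introns and overlap of exons was not checked. Its 2718 counts may be only part of its reads, which was not tested.

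Layer 6 gave 4 positive and 4 negative values among 8 tested members, a median of -0.0025 (log2) and no call. Tle4 is a Groucho-type corepressor of corticothalamic neurons. It ranged from 70.1 to 96.6 CPM in the controls with a median of 83.7, and from 57.9 to 107 CPM with PLX5622 with a median of 91.0. Both the lowest and the highest values belonged to PLX5622, of whose libraries 3 of 9 fell within the control range, and the estimate was 0.03 ± 0.11 (log2, SE, adjusted p = 0.989). Foxp2, a forkhead factor of the same neurons, ranged from 52.2 to 90.1 CPM in the controls with a median of 73.4, and from 56.6 to 87.2 CPM with PLX5622 with a median of 75.1. All 9 PLX5622 libraries lay inside the control range, at -0.04 ± 0.08 (log2, SE, adjusted p = 0.972).

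Sox5, a factor that controls the sequence in which deep-layer neurons form, had the lowest p in layer 6. Its CPM ranged from 173 to 224 in the controls with a median of 190, and from 157 to 212 with PLX5622 with a median of 193. PLX5622 animal 35 was the lowest, and the estimate was -0.06 ± 0.06 (log2, SE, adjusted p = 0.934). Tbr1, the T-box factor of early deep-layer neurons, was at 0.04 ± 0.05, with all PLX5622 libraries inside the control range of 157 to 209 CPM. Zfpm2, the GATA cofactor FOG2, was at -0.08 ± 0.08, and Hs3st4, a heparan sulfate sulfotransferase, at 0.06 ± 0.09. Syt6, a synaptotagmin, and Rprm, a cell cycle inhibitor, were at 0.01 ± 0.14 and -0.02 ± 0.10. Nxph4, a neurexophilin of the deepest cells, held 18 counts in the controls and 25 with PLX5622 and was too low to test.

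Among members found in several layers, 5 values were positive and 3 negative, with a median of 0.01 (log2) and none called. Bhlhe22, a helix-loop-helix factor of projection neurons, had the largest estimate in the whole set. Its CPM ran from 25.5 to 34.0 in the controls with a median of 29.0, and from 24.8 to 39.7 with PLX5622 with a median of 37.5. PLX5622 animals 29, 31, 32, 34 and 35 lay above every control, from 37.5 CPM upward, while the other 4 lay at 31.9 CPM or below. The estimate was 0.24 ± 0.11 (log2, SE, edgeR unadjusted p = 0.031, adjusted 0.656). The ratio of its variance between libraries to that of Poisson counting alone, averaged over the 2 diets, was 0.88. That average does not describe either diet by itself. The SD was 3.10 CPM in the controls and 5.75 CPM with PLX5622. The gene lies on chromosome 3 (18054174 to 18057517, GRCm38) and no other model overlaps it. The 5 high libraries carry the higher animal numbers of their diet. In a fit with the rank of the animal number within its diet, Bhlhe22 rose by 0.04 ± 0.02 per rank (SE), which did not pass (adjusted p = 0.552). Control numbers run from 2 to 11 and those of PLX5622 from 25 to 35, so the diet and the number series as a whole cannot be told apart.

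Lmo4, a LIM-only regulator with 18538 counts, gave the narrowest interval of the set, from -0.03 to 0.13 (log2), at 0.05 ± 0.04. The related Lmo3 was at 0.01 ± 0.07. Foxp1, a forkhead factor, was at -0.04 ± 0.04, and Bcl11a, the paralog of Bcl11b, at 0.01 ± 0.06. The netrin-G genes Ntng1 and Ntng2, which encode axonal adhesion proteins, were at 0.06 ± 0.08 and -0.08 ± 0.14. Cdh13, a cadherin without a transmembrane segment, was at -0.05 ± 0.10.

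The balance of the layers was then compared as a check on dissection depth. For each library the log2 CPM of the tested members of a layer were averaged. For the upper layers this gave 6.50 ± 0.10 on control diet and 6.48 ± 0.08 on PLX5622 (SD, n = 9 each). In layer 5 it was 6.47 ± 0.09 and 6.52 ± 0.06, and in layer 6 it was 6.60 ± 0.08 and 6.59 ± 0.16. The differences between diets, -0.02, 0.04 and -0.01, were smaller than the SD between libraries of a diet. The upper-layer difference changed sign without control 3, to 0.0091, and that of layer 6 without control 8 or PLX5622 animal 27, 29 or 35, to at most 0.0131. Upper minus layer 6 was -0.10 ± 0.12 in controls and -0.10 ± 0.19 with PLX5622, and upper minus layer 5 was 0.03 ± 0.18 and -0.03 ± 0.13. These means are scores over chosen genes and are given as a description without a test. In bulk tissue fewer cells of a layer and less RNA per cell cannot be told apart.

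**Figure D3:**
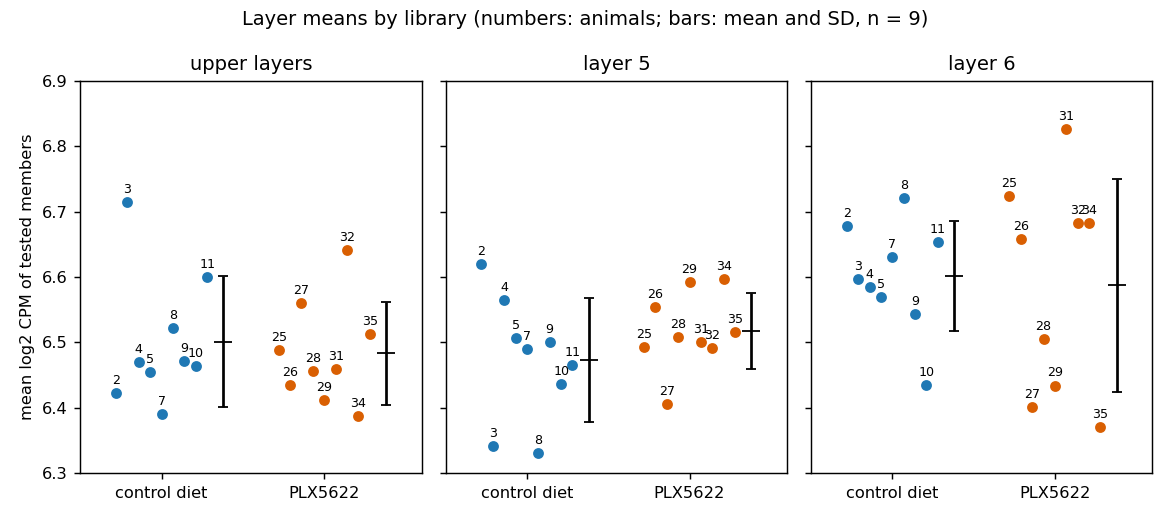
Mean log2 CPM of the tested members (vertical axis) of the upper layers, layer 5 and layer 6 in each library, with animal numbers beside the points and bars for the mean and SD of 9 libraries. The diets overlap in all 3 panels, and layer 6 spans 6.37 to 6.83 with PLX5622 against 6.43 to 6.72 in the controls.

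Single libraries varied in their layer balance. Control 3 had the highest upper-layer mean, 6.72, with all 6 members above the control mean, and the next to lowest layer 5 mean, 6.34. Fezf2, Bcl11b and Crym were each lowest in that control. Of the 8 layer 5 members 5 lay below the control mean there and 3 above it. PLX5622 animal 34 showed the opposite order, with the lowest upper-layer mean of the series, 6.39, all 6 members below the PLX5622 mean, and the highest layer 5 mean of its diet, 6.60. PLX5622 animal 27 had a high upper-layer mean, 6.56, and the lowest layer 5 mean of its diet, 6.41. Animal 32 had the highest upper-layer mean of that diet, 6.64, with all 6 members above the PLX5622 mean. Its layer 5 mean, 6.49, was near the diet mean of 6.52.

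Layer 6 varied on its own. Of the PLX5622 libraries, animals 25, 26, 31, 32 and 34 lay between 6.66 and 6.83 and animals 27, 28, 29 and 35 between 6.37 and 6.50, with no library between. In animal 31, the highest, 7 of 8 members were above the PLX5622 mean, and in animal 35, the lowest, 7 of 8 were below it. Tle4, among the more variable layer 6 members with PLX5622, was at 107 CPM in animal 31 and at 57.9 and 59.1 in animals 28 and 29. In animals 27 and 35 it was at 71.2 and 69.6 CPM. In animal 28, 4 of 8 layer 6 members were above the PLX5622 mean. Among the controls animal 10 was lowest, 6.43, with all 8 members below the control mean. The control libraries lay closer together, though the difference in spread between the diets was not tested.

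**Figure D4:**
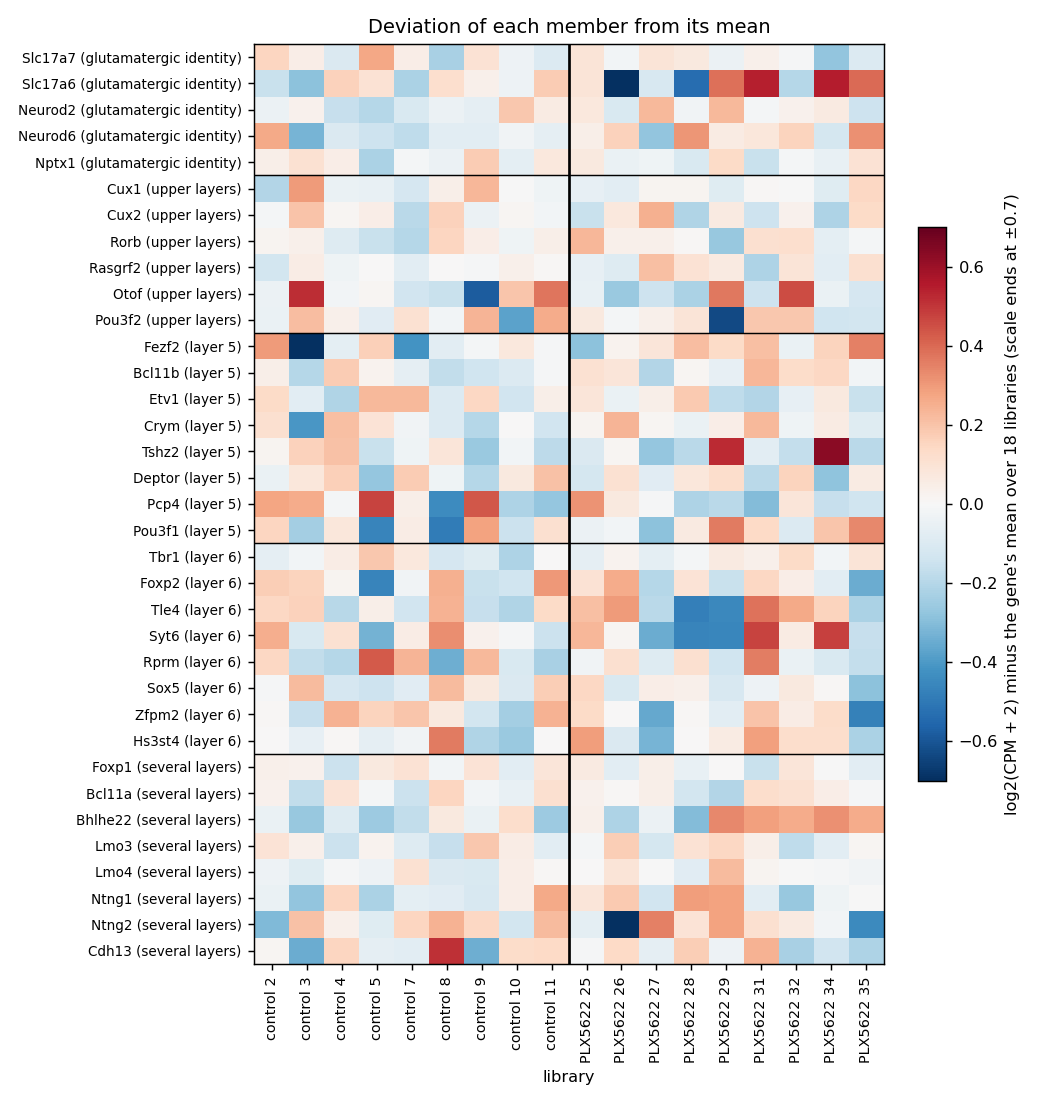
Deviation of log2(CPM + 2) from the gene's mean over all 18 libraries (colour, red above and blue below, scale ending at 0.7 in either direction) for the 35 tested members (rows, by layer group) in each library (columns, controls to the left of the line). Fezf2 and Crym are low in control 3, and most layer 6 rows are blue in PLX5622 animals 27 and 35 and red in animal 31.

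This spread exceeded counting error. The variance of CPM within a diet was divided by that expected from Poisson counting, and the ratio was averaged over the 2 diets. For the median member it was 2.29 times in layer 6, 1.91 times in layer 5 and 1.46 times in the upper layers. It was 1.43 times for glutamatergic identity and 1.30 times for members of several layers. Across the 5767 tested genes that averaged 50 counts or more per library the median was 1.34 times. Of the 30 members that well covered, 13 exceeded a ratio of 2, as did 21.0% of all such genes. Cdh13 stood highest at 6.67, followed by Hs3st4 at 6.10, Tshz2 at 5.70, Pcp4 at 5.23 and Slc17a7 at 5.00. The ratio grows with the number of counts where animals differ by a fixed percentage, so it describes each gene and does not rank biology.

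Other genes of the same cells, listed separately, were also read by diet. Of 13 further pyramidal genes, which include Camk2a, 6 were positive, 7 negative and none called, with a median of -0.003 (log2), and Nrn1, an activity-regulated neuritin, had the lowest p at 0.12 ± 0.05 (SE, adjusted p = 0.575). For the upper layers 13 of 15 were tested with 5 positive and 8 negative, led by Wfs1 at 0.14 ± 0.08 (adjusted p = 0.807). For layer 5, 10 of 11 were tested with 8 positive and 2 negative, led by Sulf2 at 0.12 ± 0.07 (adjusted p = 0.767). For layer 6, 6 of 8 were tested with 3 positive and 3 negative. The mean log2 CPM of this layer 6 list was 0.14 higher with PLX5622, where the layer 6 members differed by -0.01. Its SD within diets was 0.14, with 5 of 9 PLX5622 libraries inside the control range. The separate upper-layer and layer 5 lists differed by -0.03 and 0.03. Nr4a2, an orphan receptor of the deepest layer 6 cells that is also induced by neuronal activity, was at 0.65 ± 0.17 (adjusted p = 0.084), from 9.73 ± 2.39 to 15.3 ± 4.2 CPM (SD, n = 9 each). Of the other tested genes of the layer 6 list, Ccn2 and Sulf1 were at 0.22 ± 0.19 and 0.12 ± 0.12. Ntsr1, Nxph3 and Cplx3 were at -0.001 ± 0.19, -0.07 ± 0.18 and -0.08 ± 0.21.

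These separate lists followed the members in some libraries and not in others. The other layer 5 genes were lowest in control 3, at 5.38 beside a control mean of 5.60, where the members were next to lowest. In control 8 they were highest, 5.72, where the layer 5 members were lowest, 6.33. For layer 6 the separate list was highest in PLX5622 animal 31, at 4.07 beside a mean of 3.87, and lowest in animal 27, which was 0.23 below the control mean of 3.73, while animal 35 was at 3.87. The other upper-layer genes were at 5.64 in control 3, below their control mean of 5.69.

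Markers of neighbouring tissue and other cells were read in the same libraries. Each of the 13 further pyramidal genes had enough counts to be tested, which by itself does not identify the region or depth sampled. Microglial markers showed the diets, with 11 of 11 lower, Cx3cr1 by the lowest p at -2.07 ± 0.12 (log2, SE, adjusted p = 1.4e-23), and sums of 401 to 570 CPM in controls against 108 to 191 with PLX5622. Myelin genes, 10 of 10 tested and none called, summed to 1379 to 2073 CPM in controls and 1182 to 2403 with PLX5622, with an SD of their mean log2 CPM of 0.25 and 0.32, above that of each layer group. Their lowest p was Opalin's, at -0.25 ± 0.14 (adjusted p = 0.808). Striatal markers, 8 of 12 tested, summed to 489 to 596 and 474 to 589 CPM, and GABAergic markers, 10 of 12 tested, to 1106 to 1226 and 1091 to 1220 CPM. None was called, with Ppp1r1b at 0.19 ± 0.09 (adjusted p = 0.708) and Slc32a1 at -0.16 ± 0.09 (adjusted p = 0.767) lowest in p. Pde10a averaged 350 CPM in the controls, the largest part of the striatal sum, and Drd2, Adora2a, Six3 and Isl1 were too low to test. Thalamic and hippocampal markers, 7 of 10 tested with 1 positive and 6 negative and none called, summed to 937 to 1202 and 942 to 1095 CPM. Their mean log2 CPM differed by -0.14 (PLX5622 minus control) beside an SD within diets of 0.12. Rora and Zbtb20 averaged 549 and 380 CPM in the controls, the largest parts of these sums. Dsp, C1ql2 and Fibcd1 were too low to test. Prkcd, a protein kinase C, was at -0.79 ± 0.22 (log2, SE, adjusted p = 0.117), from 10.7 ± 3.5 to 6.05 ± 2.28 CPM (SD, n = 9 each). Choroid plexus and meningeal markers, 6 of 9 tested with 3 positive and 3 negative and none called, summed to 64.7 to 114 and 49.6 to 126 CPM. Ttr, the transthyretin of choroid plexus, was at 1.49 ± 0.44 (adjusted p = 0.283), from 5.29 ± 3.26 to 15.5 ± 9.8 CPM. Control 8 had the highest mean of the thalamic and hippocampal list, 5.91 beside 5.63 ± 0.15 in all controls. It also had the highest myelin mean of the controls, 6.49 beside 6.07 ± 0.25, and the highest values of Hs3st4 and Cdh13. In all, 3 members of layer 6, 3 of several layers and 1 of the upper layers were highest of the controls there. In layer 5 that number was 0, and 2 members were lowest there. Astrocyte markers were positive in 7 of 8 with none called, and their mean log2 CPM was 0.10 higher with PLX5622 beside an SD within diets of 0.08, with 4 of 9 libraries inside the control range. Slc1a3 led them at 0.08 ± 0.05 (adjusted p = 0.793). Endothelial and mural markers were positive in 3 of 10 with none called, led by Tek at -0.29 ± 0.13 (adjusted p = 0.645). Hs3st4 without control 8 was at 0.12 and Cdh13 at 0.03 (log2). No marker on any of these lists was at 0 in all libraries. Their part in the spread of the layer genes was not tested beyond the following fits with the myelin or the striatal mean.

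With the myelin mean of each library as a covariate, none of the 35 members was called on that covariate, and 0.271% of all genes tested were. The genes tested include the 10 that make up the myelin mean. At an edgeR unadjusted p under 0.05 there were 4 members, and the share of all genes at that level is not given here. Hs3st4 had the lowest p among the members, 0.38 ± 0.12 per log2 unit of the myelin mean (SE, adjusted p = 0.466). With the rank of the animal number as the covariate none was called either, beside 0.308% of all genes. There 3 members had an edgeR unadjusted p under 0.05, again without the share of all genes. Slc17a7 had the lowest p at -0.03 ± 0.01 per rank (adjusted p = 0.277). In both of these fits the diet also called none of the members. A fit with the striatal mean of each library as the covariate likewise called 0 members on diet. Values of the members on the striatal covariate itself are not reported here.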

How the data were processed

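The authors deposited, for each library, a table of unnormalised read counts by Ensembl gene, from a 3'-biased protocol per the series text. The submitters' processing notes list GRCm38.p6 and mm10 as builds, and as tools R 3.5.1, HTSeq 0.11.0, Bowtie2 2.3.4.3, DESeq2 1.10.1 and FastQC 0.11.8. Roles, strand setting and annotation release were not given in the sources used here. Identifiers were matched to symbols without version, and all 37 members had a row. Positions and overlaps come from GENCODE M21 (GRCm38), with overlaps taken between whole gene spans, introns included. Libraries held 990136 to 1742680 counts (median 1384979), so 1 CPM is about 1 to 2 counts, and none duplicated another (the least different pair had a chi-square of 1.129 per degree of freedom).

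All genes were fitted with edgeR 4.0.16 (R 4.3.3): filterByExpr at its defaults (minimum count 10, total 15), TMM scaling, robust quasi-likelihood test without covariates, Benjamini-Hochberg adjustment over 11051 genes. CPM use TMM-scaled totals, and log2 CPM a prior count of 2. Alternatives were DESeq2 1.42.0, limma-voom (limma 3.58.1), other scalings and filters, covariates, and leaving out libraries. Groups come from the titles, and animal numbers do not pair the diets. The labels number the samples but name no cages, litters or sessions, so p-values measure the spread between these samples. Members and lists were chosen by name, with results of an earlier reading of the same series, from the whole gene table, known. Values by library are given for Slc17a7, Neurod6, Cux2, Rorb, Fezf2, Bcl11b, Tle4 and Foxp2, and for the member with the lowest p in each group; other lists are given by counts and their lowest-p gene. Ntsr1, Nxph3, Cplx3, Ccn2, Sulf1, Rora, Zbtb20, Pde10a and the untested markers named with them were chosen after their values were seen. No genomic or protein sequence is printed.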

Additional observations from a re-analysis of the deposited data

Results flagged for a closer look

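In 6 of 80 sets of 9 values (35 tested members and 5 layer means in each diet) 1 library stood apart, by a gap to its nearest neighbour that exceeded Dixon's 95% critical value; about 1 in 20 sets does so by chance. Neurod6 was at 184 CPM in control 2, where the other controls lay at 122 to 151. Hs3st4 was at 307 CPM in control 8, beside 199 to 240, and Cdh13 at 278 CPM in the same library, beside 152 to 215. With PLX5622, Cux1 was at 117 CPM in animal 35, beside 99.6 to 108, Pou3f2 at 28.7 CPM in animal 29, beside 41.2 to 52.2, and Rprm at 56.8 CPM in animal 31, beside 38.9 to 47.6.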

How the results depend on the processing

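No member was called under any of the 28 alternatives, of which 18 left out 1 library, and the lowest adjusted p was 0.26. Of 975 member values 939 kept their direction and 36, in 10 members, crossed 0, all from estimates of at most 0.076 (log2) in size. Without control 8 and PLX5622 28 together, Cux2 was at 0.0047, Lmo3 at -0.0242 and Cdh13 at 0.0058. Syt6 was at -0.0091 with the myelin covariate and -0.0205 with limma-voom. Leaving out 1 library gave -0.0149 to 0.0288 for Bcl11a, -0.0935 to 0.0256 for Cdh13, -0.0668 to 0.0017 for Cux1, -0.017 to 0.0351 for Lmo3, -0.1244 to 0.032 for Otof, -0.0672 to 0.042 for Rprm, -0.0719 to 0.0625 for Syt6, -0.0164 to 0.0779 for Tle4 and -0.029 to 0.1171 for Tshz2. Neurod6 stayed between 0.12 and 0.20 and Bhlhe22 between 0.21 and 0.30. The differences of layer means moved by less than 1 SD under the 21 alternatives run for them (summed CPM, another prior count, another scaling, 1 library left out), though the upper layers reached 0.0043 with summed CPM and 0.0091 without control 3, and layer 6 reached 0.0131 without PLX5622 35.

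Over all genes, 39 were lower and 5 higher. DESeq2 called 65 lower. A fit without the count filter called 92 lower and 20 higher, and a mean of at least 50 counts left 8 and 0. With the animal number as covariate 17 were higher, without control 8 and PLX5622 28 together 8, and without 1 library 2 (control 2 or control 4) to 13 (PLX5622 25); the cause was not tested. Members at an unadjusted p under 0.05 numbered 0 without control 3 or PLX5622 35, and up to 4 (without control 4). About 1 count per CPM limits Nxph4, Slc17a6 and Otof most. No paired analysis was possible because the diets share no animal numbers.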
